A study of Homo sapiens with 4 samples.

Results

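Intronic summits near splice sites were all peak summits of Star-PAP HITS-CLIP on the 22 autosomes that lay in no annotated exon, inside an intron of a protein-coding gene, and within 300 bp of an annotated 5′ or 3′ splice site of that intron on hg19. Of the 1031599 summits of the 3 peak lists, 39211 met this rule, of which 9752 came from control, 16324 from siStar-PAP and 13135 from siRBM10. The summits were assigned by position alone, and the score of a summit played no part.

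HITS-CLIP crosslinks proteins to RNA in living cells with UV light (here 400 mJ per cm2), pulls down 1 protein and sequences the RNA fragments that come with it. All samples were of HEK293, an established line of human embryonic kidney cells, and the labels give the same siRNA transfection and a harvest after 48 h for each of them. An anti-Star-PAP antibody was used on control cells, on cells whose Star-PAP had itself been depleted (siStar-PAP) and after RBM10 depletion (siRBM10). The common reference of peak calling was an IgG pull-down. Each condition was 1 library, so replicate error is unknown for every difference between conditions and no test was made between them. The labels do not say which siRNA, if any, the control cells received. Peak names carry one set label in the control list and another in both depletion lists, so the set and the depletion cannot be told apart. All values below that set control against the depletions share this limit and the single IgG library.

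Star-PAP is a nuclear poly(A) polymerase that acts on the 3′ ends of selected mRNAs. RBM10 is an RNA-binding protein of the spliceosome that is known to change which exons are included, and it contacts introns and exons around splice sites. At the start of an intron the 5′ splice site, mostly GU, is read by the U1 snRNP, and at its end the polypyrimidine tract and the AG of the 3′ splice site are read by the U2AF proteins before the U2 snRNP joins.

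To show where these summits lie, splice sites next to summits of high score are given first, as DNA on the strand of the gene. Each run has 27 bases of intron and 3 bases of exon, and capitals mark the pair of intron bases at the splice site. The first group shows 3′ splice sites with a siStar-PAP or siRBM10 summit of high score. They belong to HSP90AA1 (a cytosolic chaperone), URI1 (a prefoldin-like protein), RPL3 (a protein of the large ribosomal subunit) and FANCA (DNA crosslink repair).
HSP90AA1 intron 5, chr14:102551333-102551362, minus strand: gatgtgatttcgtgttttcttttgaAGgtg
URI1 intron 7, chr19:30499885-30499914, plus strand: gatcttgttaattttcttccttgctAGtaa
RPL3 intron 4, chr22:39711558-39711587, minus strand: agctgagctgtgtctaccttctcctAGatg
FANCA intron 31, chr16:89816308-89816337, minus strand: ctgtgccagcatactgctctttttcAGgag

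The second group shows 5′ splice sites with a depletion summit of high score, in WT1 and RUNX1 (transcription factors), JAK2 (a cytokine receptor kinase) and ERBB4 (a receptor tyrosine kinase).
WT1 intron 6, chr11:32421467-32421496, minus strand: cagGTgagcacacagacaggccccagcggg
JAK2 intron 14, chr9:5073783-5073812, plus strand: agaGTaagtaaaactacaggctttctaatg
RUNX1 intron 5, chr21:36231744-36231773, minus strand: gaaGTaagtgcatccacttggggctggtac
ERBB4 intron 3, chr2:212812128-212812157, minus strand: cagGTaaggaatatatccaaaatggcaaat

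The third group shows the windows of 30 bases around the summits of highest score in control, with the summit base in capitals. Both lie in intron 12 of SCNN1D, a subunit of an epithelial sodium channel, 1 near each end of the intron.
SCNN1D 3′ side, summit chr1:1225471, plus strand: gtgtctctgctccgtCccgtgtctctgctc
SCNN1D 5′ side, summit chr1:1223597, plus strand: cctgtgtctctgctcCgtcccgtgtctctg
The windows of these summits, which are 1874 bp apart, share a run of 27 bases, gtgtctctgctccgtcccgtgtctctg.

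The near-splice part of introns held a smaller share of control summits than of depletion summits. Of summits in introns of protein-coding genes, 6.14% (6.02 to 6.26) lay near a splice site in control, 11.1% (10.95 to 11.3) in siStar-PAP and 10.2% (10.1 to 10.4) in siRBM10, with 95% Wilson intervals that cover counting error only. Near-splice bases made up 8.22% of the intronic bases considered, 92.9 of 1131 Mb, so control lay below this share and both depletions above it. Introns differ in length and in how many summits they hold, and the expected number was therefore taken within each intron, with its own summits spread evenly over its non-exonic bases. On this basis the number observed was 0.917 times that expected in control (0.899 to 0.936, exact Poisson interval), 1.03 times in siStar-PAP (1.01 to 1.05) and 0.997 times in siRBM10 (0.980 to 1.01). Most of the difference in share between control and the depletions therefore lay between introns, and a smaller one within them. A summit in an intron stretch that lies wholly within 300 bp of a splice site cannot move this ratio, which was so for 11.8% of control members, 19.97% of siStar-PAP members and 19.7% of siRBM10 members.

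The 3′ side held more than its share of these summits in both depletion libraries, while control was close to an even split. Control had 4856 near-splice summits on the 3′ side, upstream of the exon, and 4896 on the 5′ side, a 3′ share of 49.8% (48.8 to 50.8) where even spreading gave 49.9%. In siStar-PAP 8538 were on the 3′ side and 7778 on the 5′ side, a share of 52.3% (51.6 to 53.1) against 48.9%. In siRBM10 the numbers were 6814 and 6319, a share of 51.9% (51 to 52.7) against 48.9%. The interval held the expected share in control, and lay above it in both depletions. Another 8 siStar-PAP and 2 siRBM10 summits were equally far from a splice site of each kind and were counted on neither side.

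The excess of the depletion libraries was in the last bases of the intron. In the last 50 bp before the 3′ splice site, the observed number was 1.44 times that expected in siStar-PAP (1.38 to 1.50, 2331 summits) and 1.45 times in siRBM10 (1.39 to 1.52, 1899 summits), and it was 0.925 times in control (0.865 to 0.987, 895 summits). The polypyrimidine tract and the branch point lie in this part of introns. Within it the ratio had no narrow peak: in steps of 5 bp it ran from 1.39 to 1.50 in siStar-PAP and from 1.34 to 1.60 in siRBM10, with intervals that all overlapped within a library.

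The 2 depletion libraries differed in how far the excess reached into the intron. From 51 to 75 bp the ratio was 1.37 in siStar-PAP (1.29 to 1.46) and 1.17 in siRBM10 (1.08 to 1.26), and from 76 to 100 bp it was 1.22 (1.14 to 1.31) and 0.961 (0.882 to 1.05). From 101 to 125 bp it was still 1.13 in siStar-PAP (1.05 to 1.22), while siRBM10 was at 0.952 (0.872 to 1.04). These intervals did not overlap in the bin from 51 to 75 bp or in either of the next 2. Beyond 150 bp, from 151 to 300 bp, all 3 libraries were below 1 on this side, at 0.908 in control, 0.870 in siStar-PAP and 0.930 in siRBM10. Peaks were called with a fragment size of 500 bp and without strand in the lists, so a summit is the middle of a cluster of tags and not the crosslinked base, and a distance well below that size is close to the limit of what the summits resolve.

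**Figure D1:**
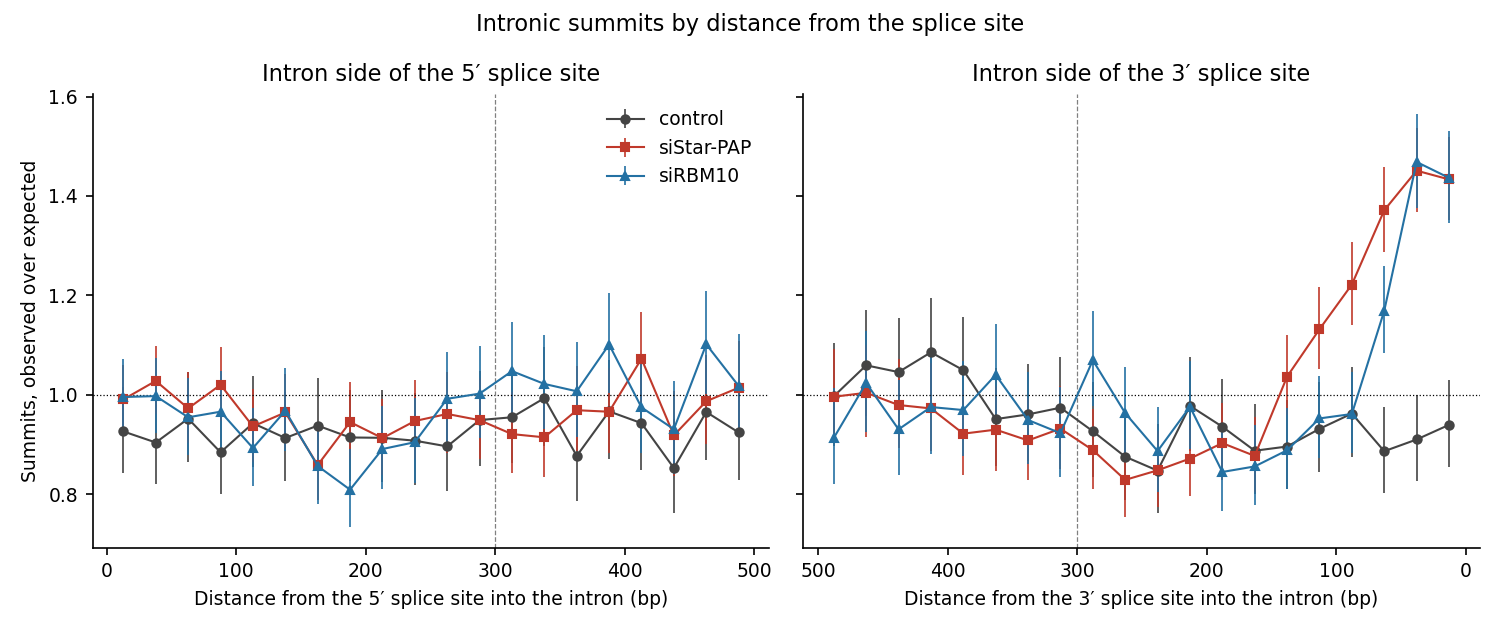
Observed over expected number of intronic summits in bins of 25 bp from the 5′ splice site (left) and the 3′ splice site (right) up to 500 bp into the intron, for control, siStar-PAP and siRBM10, with bars for 95% exact Poisson intervals and a dashed line at 300 bp. On the 3′ side siStar-PAP and siRBM10 both rise to above 1.4 in the last 50 bp, siStar-PAP from farther out, whereas control stays below 1 over the last 300 bp.

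The 5′ side showed no such excess. In the first 50 bp of the intron the ratio was 1.01 in siStar-PAP (0.962 to 1.06), 0.996 in siRBM10 (0.945 to 1.05) and 0.915 in control (0.856 to 0.977). From 151 to 300 bp it was 0.928, 0.906 and 0.920 in the same order. Over the whole 300 bp the 5′ side stood at 0.961 (0.940 to 0.983) in siStar-PAP, 0.939 (0.916 to 0.962) in siRBM10 and 0.920 (0.894 to 0.946) in control, so all 3 libraries were slightly below even spreading there. For the 3′ side the same values were 1.10 (1.08 to 1.13), 1.06 (1.03 to 1.08) and 0.915 (0.889 to 0.941). Among summits with a score of 4 or more, the 3′ side of siRBM10 was at 1.0 (0.924 to 1.08) and showed no excess, and that of siStar-PAP was at 1.20 (1.10 to 1.3). Farther into introns, from 501 to 1000 bp, the ratios of the 3 libraries on both sides lay between 0.954 and 1.02.

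Exons next to these introns held more summits in the depletion libraries as well. In the 100 exonic bp that follow a 3′ splice site, siStar-PAP had 295.1 summits per Mb (286.4 to 303.9), siRBM10 273.6 (265.3 to 282.1) and control 104 (98.7 to 109). In the 100 exonic bp before a 5′ splice site the densities were 228 (220 to 235), 190 (184 to 197) and 106 (101 to 111). In the 50 intronic bp before the 3′ splice site they were 269.9 in siStar-PAP, 219.9 in siRBM10 and 104 in control, and in the first 50 intronic bp after the 5′ splice site 188.9, 152 and 98.0. In both depletions the density thus rose towards the exon before a 3′ splice site and stayed at a similar or higher level in the exon, and on the 5′ side it was lower in the intron than in the exon, whereas control was nearly level over these 100 bp of exon and 50 bp of intron. Peaks of exonic fragments that reach over the splice site can place their summit in the intron, and the part of such peaks in the intronic excess was not tested. Nor was it tested whether material shared by both depletion libraries, whose lists carry the same set label, took part in their higher density in and next to exons.

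**Figure D2:**
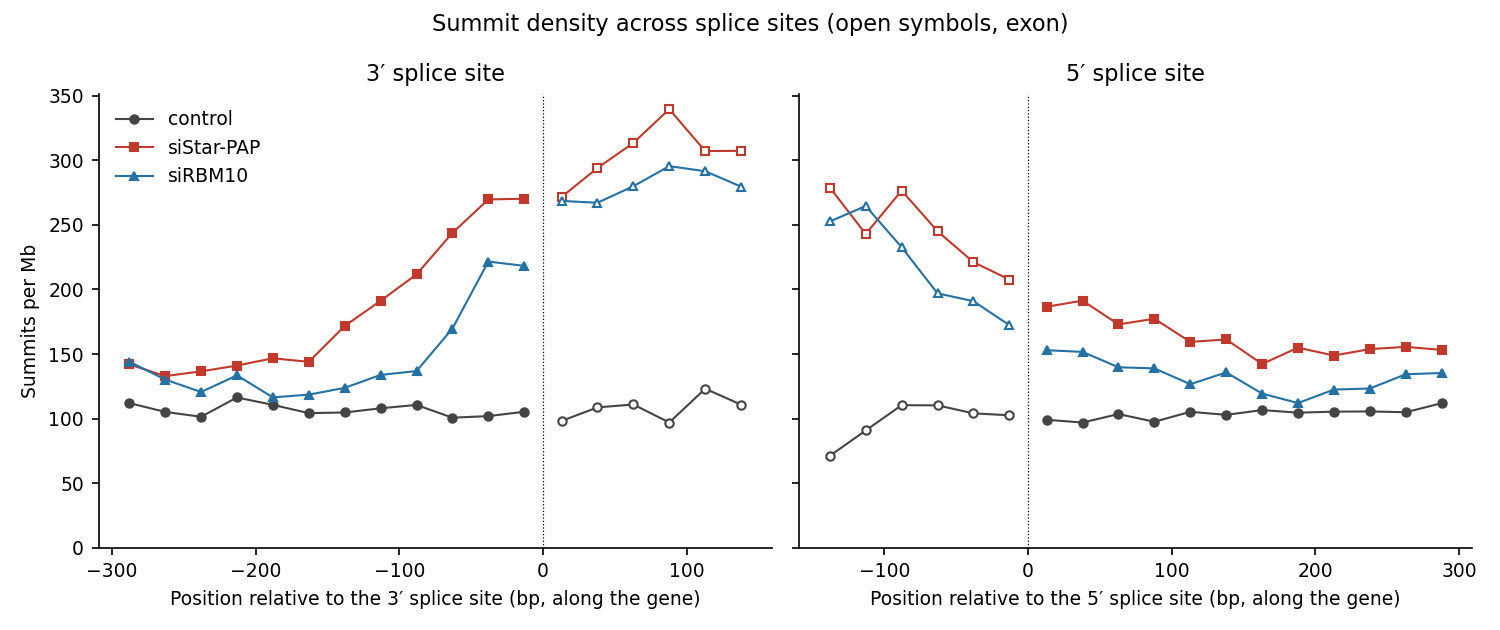
Summits per Mb in bins of 25 bp across the 3′ splice site (left) and the 5′ splice site (right), along the direction of the gene, with filled symbols for intron bases that lie in no exon and open symbols for exon bases. Control lies between 71.2 and 123 per Mb throughout, and siStar-PAP and siRBM10 climb towards the exon at the 3′ splice site.

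The excess next to the 3′ splice site was found in first, inner and last introns in both depletions, at different sizes. In the last 100 bp of inner introns the ratio was 1.41 in siStar-PAP (1.36 to 1.46) and 1.31 in siRBM10 (1.26 to 1.36), against 0.918 in control (0.870 to 0.967). In first introns it was 1.21 (1.09 to 1.34) and 1.14 (1.01 to 1.28), and in last introns 1.40 (1.27 to 1.54) and 1.26 (1.11 to 1.41). First introns thus had the smallest excess, with an interval below that of inner introns in siStar-PAP and one that overlapped it in siRBM10. Over the whole 300 bp first introns had no excess on the 3′ side, at 1.02 (0.956 to 1.09) and 0.995 (0.922 to 1.07), nor had the few summits in genes with a single intron, at 0.830 (0.598 to 1.12) and 0.931 (0.671 to 1.26). The first, inner and last introns were counted on the transcript of each gene whose coding sequence is longest.

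Exons that are sometimes left out differed from the rest. Before internal exons that lie inside an intron of another transcript of the gene, and can therefore be skipped, the ratio in the last 100 bp was 1.19 in siStar-PAP (1.11 to 1.28) and 1.13 in siRBM10 (1.04 to 1.22). Before internal exons that no annotated intron of the gene spans it was 1.46 (1.41 to 1.51) and 1.35 (1.3 to 1.41), so the intervals of the 2 kinds of exon did not overlap in either depletion. In control the ratios were 0.928 (0.842 to 1.02) and 0.923 (0.870 to 0.978). On the 5′ side of skipped exons the ratio was 1.07 in siRBM10 (0.989 to 1.16) and on that of the other exons 0.930 (0.883 to 0.979), while in siStar-PAP these intervals overlapped. Over the whole 300 bp, the share of summits next to a skipped exon was 27.6% in control, 25.9% in siStar-PAP and 26.8% in siRBM10, close to the 27.2%, 26.5% and 27% that even spreading in the same introns gave.

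The ratio next to the 3′ splice site varied with the length of the intron stretch in siStar-PAP, and by less than the intervals in siRBM10. The expected number of a stretch comes from its own summits. The ratio is therefore drawn towards 1 by construction where these 100 bp make up much of a short stretch. The part of this in the differences by length was not tested. In stretches of up to 1000 bp the ratio in the last 100 bp was 1.25 in both, with intervals of 1.19 to 1.31 and 1.18 to 1.32. In stretches of 1000 to 10000 bp it was 1.51 in siStar-PAP (1.44 to 1.57) and 1.29 in siRBM10 (1.23 to 1.36), and in longer ones 1.33 (1.18 to 1.50) and 1.27 (1.11 to 1.44). In control the last 100 bp of stretches over 10000 bp had a ratio of 0.796 (0.689 to 0.914), lower than the 1.03 (0.943 to 1.11) of stretches up to 1000 bp.

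**Figure D3:**
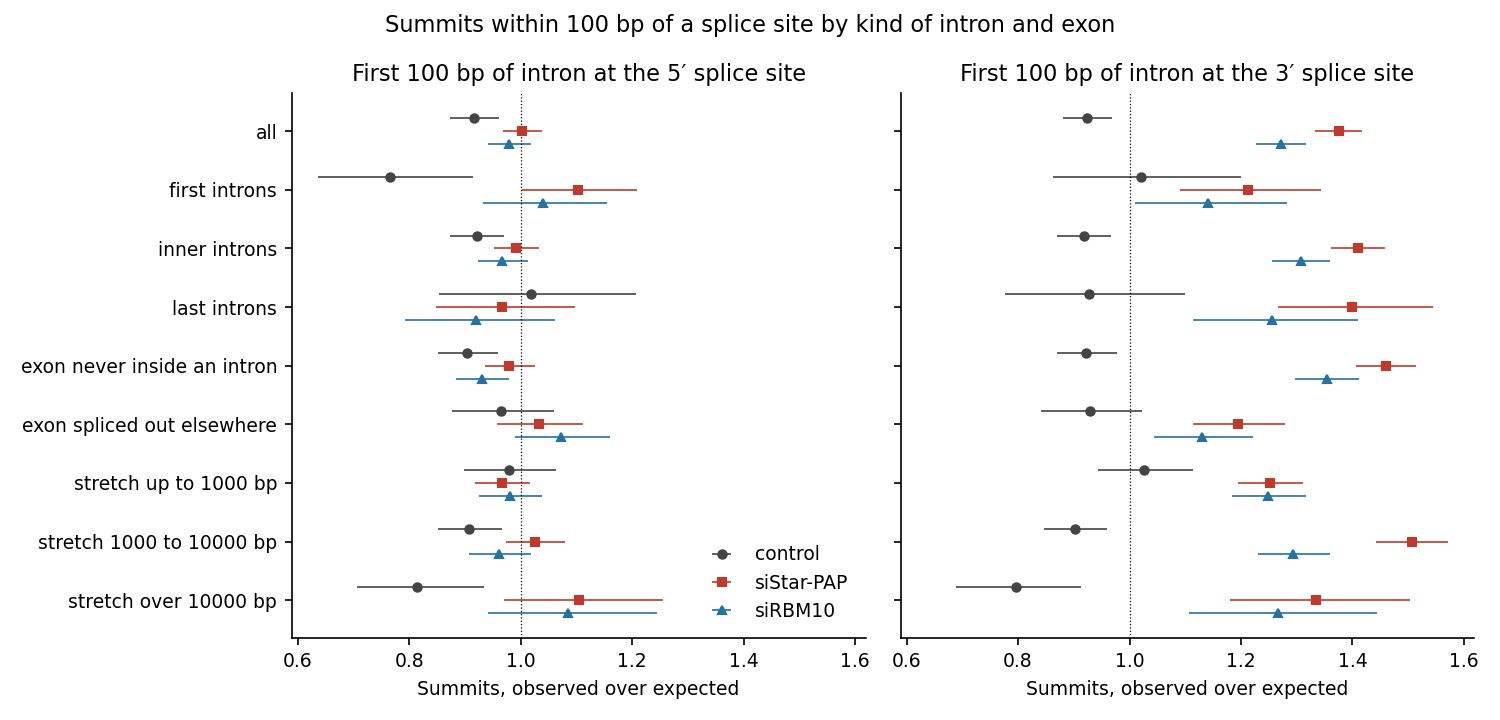
Observed over expected number of summits in the 100 bp of intron next to the 5′ splice site (left) and the 3′ splice site (right), for all introns and by intron position, by whether the neighbouring internal exon is spliced out in another transcript, and by the length of the intron stretch. Points are libraries and bars 95% exact Poisson intervals. All siStar-PAP and siRBM10 intervals lie above 1 on the 3′ side, while on the 5′ side nearly all of them include 1.

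First introns carried a smaller part of the control summits. They held 7.71% (7.19 to 8.27) of the control members whose intron could be ranked, 12.8% (12.3 to 13.3) of those of siStar-PAP and 12.6% (12 to 13.2) of those of siRBM10, and 12% of ranked near-splice bases are in first introns. The depletions were thus at or slightly above the share of bases, and control was below it. Even spreading in the same introns gave 8.55% in control, so most of its gap lay between introns. With a score of 4 or more, which left 317 control members, a lower share in control was not seen, with 9.80% in control, 9.10% in siStar-PAP and 9.33% in siRBM10. No interval was taken for these shares, so their order is not read. Within first introns control was low next to the 5′ splice site, on the side of the transcription start, with a ratio of 0.684 (0.610 to 0.764, 310 summits), and not next to the 3′ splice site, with 0.987 (0.894 to 1.09, 408 summits). The depletions had 1.05 (0.992 to 1.12) and 1.0 (0.935 to 1.07) on that 5′ side. The inner introns held 83.6% of ranked control members, 77.5% in siStar-PAP and 77.7% in siRBM10.

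The members of control and of the depletions also differed in base composition and in chromosome. Over 200 nt around the summit the mean GC content was 42.2% in control, 50.9% in siStar-PAP and 50.3% in siRBM10, beside 44.3% for all near-splice bases. Even spreading in the same introns gave 41.1%, 49.5% and 49.0%, so nearly all of the difference lay between introns, and the members exceeded their introns by 1.03 to 1.38 percentage points. Other intronic summits had 41.1%, 47.2% and 46.8%. The part of GC content in the excess near 3′ splice sites was not tested.

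By chromosome, the number of near-splice summits was higher in siStar-PAP than in control on 19 autosomes and lower on chromosomes 4, 8 and 13. On chromosome 19, which is dense in genes and rich in GC, the numbers were 348 in control, 1658 in siStar-PAP and 1321 in siRBM10. On chromosome 4, which is poor in genes, they were 619, 334 and 289. The depletion lists thus had 4.76 and 3.8 times the control number on chromosome 19, and 0.540 and 0.467 times that number on chromosome 4. Relative to even spreading within introns, the near-splice ratio of siStar-PAP was above 1 on 18 of 22 autosomes, that of siRBM10 on 10 and that of control on 1.

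Short motifs around these summits were about as frequent as in the introns in which they lay, apart from AUA, which was less frequent. They were read in 20 nt around the summit on the strand of the gene. AUA, the core of a motif linked to Star-PAP sites, was present for 24.8% (24.0 to 25.7) of control members, 14.6% (14.1 to 15.2) of siStar-PAP members and 15.0% (14.4 to 15.6) of siRBM10 members. Even spreading in the same introns gave 26.7%, 16.2% and 16.6%, above the observed share in each library, and all near-splice bases gave 22.9%. Runs of 6 U were found for 2.65% (2.35 to 2.98), 1.89% (1.69 to 2.11) and 1.67% (1.47 to 1.91), where the same introns gave 2.96%, 1.88% and 1.86%. Runs of 6 G were rare, at 0.185%, 0.484% and 0.464%, with 0.206%, 0.471% and 0.421% from the same introns. The poly(A) signal AAUAAA was found for 1.05%, 0.594% and 0.571% of members and for 1.31%, 0.714% and 0.686% of evenly spread positions. A match is a description of these letters, and none of these shares was above that of the introns beyond its interval, while AUA in each library, and AAUAAA in control (interval 0.862 to 1.27%), were below it. The 3′ splice sites next to members had on average 73.2%, 73.4% and 73.7% pyrimidines in 20 intron bases, counted up to the base that precedes the AG and without it. The mean over all 3′ splice sites used was 73.3%. Only sites with near-splice bases whose longest intron has at least 300 bp entered these means.

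The score of a summit is the −log10 of its MACS2 p-value, which depends on the depth of the library and of IgG. An equal score is therefore not an equal strength in different lists, and values of the lists set side by side by score share this limit. The median score of members was 1.33 in control, where 57.5% of members shared the value 1.33, and it was 2.47 in siStar-PAP and 2.73 in siRBM10. With rising score, the near-splice ratio of control fell from 0.965 (0.941 to 0.989) below a score of 2 to 0.855 (0.827 to 0.884) from 2 to 4, 0.809 (0.721 to 0.904) from 4 to 10 and, in the class of 10 or more, 0.402 (0.148 to 0.876). The last class held 6 of the 9752 control members. The same ratio of siStar-PAP had no steady course, with 1.06 (1.03 to 1.09) below 2 and 1.02 from 2 to 4. From 4 to 10 it was 1.03 (0.970 to 1.10), and above that 1.87 (0.968 to 3.27). Only the 3′ side of siStar-PAP rose, from 1.08 (1.03 to 1.13) below 2 to 1.19 (1.09 to 1.29) from 4 to 10. Above that it was at 2.89 (1.32 to 5.49, 9 summits). The 5′ side of siStar-PAP was at 1.04 below 2, 0.884 from 4 to 10 and 0.914 (3 summits) above that. The 3′ side of control fell from 0.973 below 2 to 0.268 (0.0325 to 0.969, 2 summits) in the highest class. In siRBM10 the 3′ side was at 1.12 (1.06 to 1.18) below 2, 0.994 (0.918 to 1.07) from 4 to 10 and 2.52 (1.01 to 5.20, 7 summits) above that, so it had no steady course.

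**Figure D4:**
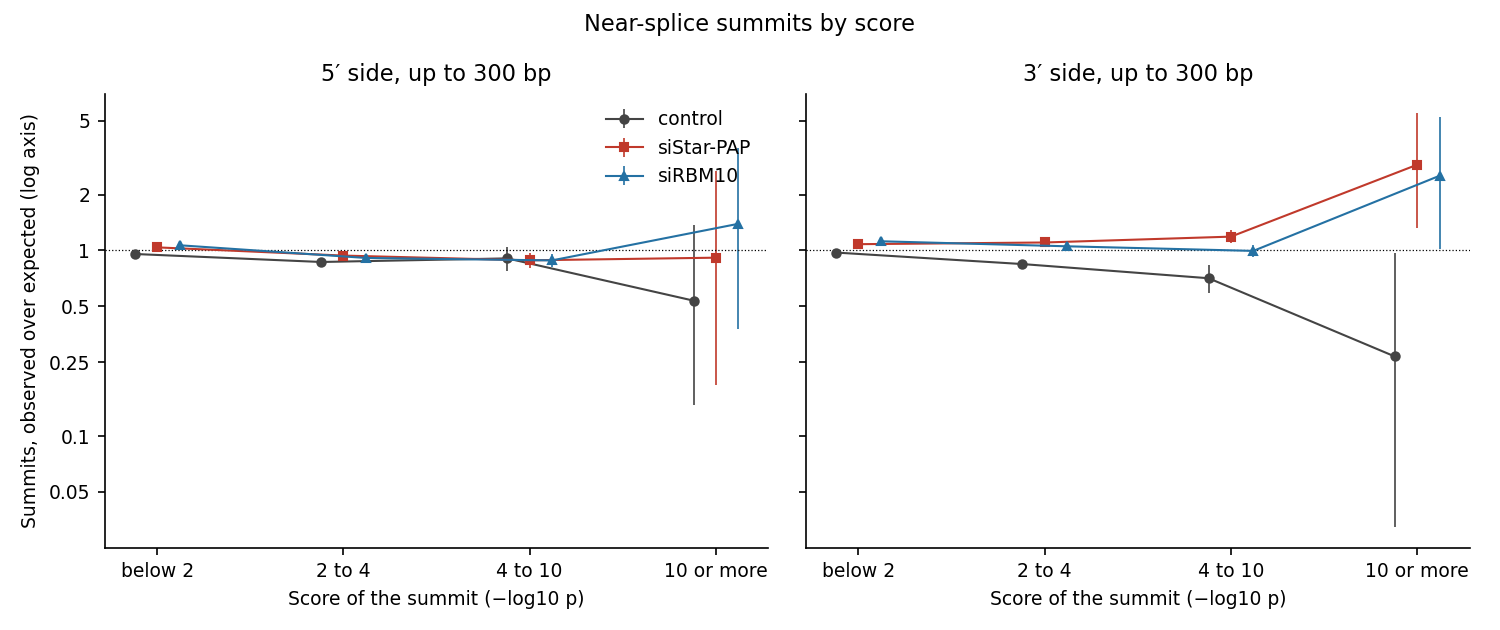
Observed over expected number of near-splice summits by score class on the 5′ side (left) and the 3′ side (right), on a log axis, with 95% exact Poisson intervals. On the 3′ side control falls with the score to 0.268 in the highest class, which holds 2 summits. The highest classes of siStar-PAP and siRBM10, with 9 and 7 summits, stand at 2.89 and 2.52.

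Of 24 intronic siStar-PAP summits with a score of 10 or more, 12 lay near a splice site, as did 11 of 21 in siRBM10 and 6 of 166 in control. Relative to even spreading in the same introns this was 1.87 times (0.968 to 3.27), 1.94 times (0.967 to 3.47) and 0.402 times (0.148 to 0.876). Both depletion intervals included 1 and were wide, so these few summits cannot show how much of the gap lay between introns and how much within them. The 12 siStar-PAP members were a median of 19 bp from the splice site and the 11 siRBM10 members 18 bp, where the 6 control members were 170 to 225 bp away. Of the 23 depletion members of this class, 18 lay within 50 bp of the splice site, 20 had a summit of the other depletion within 500 bp and 4 had a control summit that close. These few summits therefore lay at nearly the same positions in both depletions, close to exons, and mostly away from control summits.

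On the 3′ side, the highest score in siStar-PAP was 34.1 in HSP90AA1, at chr14:102551341, 6 bp before the exon that follows intron 5. The siRBM10 list had a summit 62 bp away, and the nearest control summit was 3748 bp away. URI1 (score 16.5) had its summit on the last base of intron 7, with a control summit 217 bp away, and RPL3 (score 12.8) was 24 bp before the exon, with a siRBM10 summit 12 bp away. In siRBM10 the highest 3′ scores were those of RPS29 (21.4, a ribosomal protein gene, 273 bp from the splice site of an alternative transcript), FANCA (18.2, 21 bp) and JAK3 (13.2, 6 bp, a cytokine receptor kinase). FANCA had a siStar-PAP summit at the same base, chr16:89816331.

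On the 5′ side, the highest scores in siRBM10 included those of RUNX1 (25.8, 10 bp into intron 5) and ERBB4 (16.4, 20 bp into intron 3). Their nearest siStar-PAP summits lay 95 and 13 bp away, and their nearest control summits 4672 and 16278 bp away. In siStar-PAP the highest were WT1 (14.5, 17 bp into intron 6), JAK2 (12.8, 3 bp into intron 14) and PAFAH1B1 (9.85, 154 bp into intron 3), a regulator of dynein. The JAK2 summit, chr9:5073788, was at the same base in both depletions, with a score of 16.4 in siRBM10, and the nearest control summit was 3074 bp away. Other members with a score of 10 or more, named here after their values were seen, were in ANP32B, MCM3, ERBB2, SF3B2, a second site of WT1 and RPS29 in siStar-PAP, and in PIK3R1, MET, ATP5F1A and RPS24 in siRBM10. Both depletion lists carry a set label that control lacks, and whether these summits at nearly equal positions came from RNA bound in the pull-down or from other material sequenced with that set was not tested.

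The control list had other genes at the top. On the 3′ side these were SCNN1D (22.8, 180 bp), ANO10 (12.8, 225 bp, a membrane protein of the anoctamin family) and OTOF (7.44, 268 bp, which acts in hearing), and on the 5′ side SCNN1D (18.4, 180 bp), RNH1 (15.5, 175 bp, the ribonuclease inhibitor) and RHPN1 (15.1, 170 bp). None was within 150 bp of its splice site. Both SCNN1D summits had a siRBM10 summit close by, at 115 and 42 bp, and the RNH1 summit a siStar-PAP summit at 163 bp.

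Near-splice positions were mostly not shared between control and the depletions. A siStar-PAP summit lay within 500 bp of 16.1% (15.4 to 16.9) of control members and a siRBM10 summit within 500 bp of 13.1% (12.4 to 13.7). Evenly spread positions in the same introns had 15.7% and 13.1%, so the first share was at most slightly above these, and the second equal to them. Both depletions had a summit within 500 bp of 344 control members (3.53%), and neither had one for 7250 (74.3%). No share of evenly spread positions was taken for these last counts, so they are a description only. The depletions shared more with each other: 22.5% (21.9 to 23.1) of siStar-PAP members had a siRBM10 summit within 500 bp and 26.7% (26 to 27.5) of siRBM10 members a siStar-PAP summit, against 22.1% and 26% in the same introns and 14.9% and 17.7% over all near-splice bases.

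At a distance of 100 bp the sharing between the depletions rose above that of their introns, with 6.23% (5.87 to 6.61) of siStar-PAP members where even spreading gave 4.78%, and 7.48% (7.05 to 7.95) of siRBM10 members where it gave 5.87%. The control members shared 4.18% (3.8 to 4.60) with siStar-PAP at this distance, against 3.43%, and 2.82% (2.51 to 3.17) with siRBM10, against 2.57%. Of siStar-PAP members in the last 100 bp before a 3′ splice site, 24.7% (23.4 to 26.1) had a siRBM10 summit within 500 bp, compared with 22.1% (20.9 to 23.3) farther into the intron on that side and 22.2% (20.7 to 23.6) in the first 100 bp after a 5′ splice site. The first interval did not overlap the second and overlapped the third, and siRBM10 summits are denser next to 3′ splice sites.

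Counted by splice site, siStar-PAP and siRBM10 had a member at 1131 sites in common (6.93% of siStar-PAP sites and 8.61% of siRBM10 sites), control and siStar-PAP at 497 (5.10% and 3.04%) and control and siRBM10 at 349 (3.58% and 2.66%). The introns considered have 465055 splice sites. No number expected for common sites was taken, and the lists differ in size and in the introns they mark, so these counts are a description only. All 3 libraries had a member at 32 sites, 17 of them 3′ and 15 of them 5′ splice sites. Ranked by the lowest of the 3 scores, the first was the 5′ splice site of intron 7 of FOXK2, a forkhead transcription factor. It is shown with the AFG3L2 (a mitochondrial protease), CLTC (clathrin heavy chain) and ZC3H4 (a nuclear zinc finger protein) sites that rank second and lower among these, because these are positions where no library lacks a summit. Capitals again mark the intron bases at the splice site.
FOXK2 intron 7, chr17:80544074-80544103, plus strand: aagGTaggcggaggggaaaggaggagaggg
AFG3L2 intron 9, chr18:12353155-12353184, minus strand: ggtgactctctttctgtttttgccaAGgtc
CLTC intron 28, chr17:57762390-57762419, plus strand: gcatttggatggctttttttttttaAGgct
ZC3H4 intron 3, chr19:47597335-47597364, minus strand: ctgagtctccttcccctgtcattacAGcgc

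At FOXK2 the summits lay within 13 bp of each other, 198 bp into the intron in control (score 6.89), 192 bp in siStar-PAP (5.87) and 185 bp in siRBM10 (8.54). At AFG3L2 the control summit was 145 bp before the exon (score 3.36), and those of siStar-PAP and siRBM10 were 43 bp (8.60) and 27 bp (3.25) before it. At ZC3H4 they were 137, 9 and 96 bp before the exon, with scores of 3.25, 2.36 and 2.69, and at CLTC 284, 30 and 223 bp, with scores of 3.36, 2.64 and 2.77. In these 3 genes the control summit was the farthest from the 3′ splice site. At PTGR1 it was the nearest, at 38 bp, with siStar-PAP at 72 bp and siRBM10 at 299 bp. The other sites among the first 8 were in MBTD1, PTGR1, STOML1 and DNAH17, with lowest scores of 2.92, 2.49, 2.48 and 2.35.

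By gene, near-splice summits were found in 5910 of 18084 protein-coding genes with near-splice bases in control (32.7%), in 8665 in siStar-PAP (47.9%) and in 7789 in siRBM10 (43.1%). Most of these genes had few: 3633, 4647 and 4635 had a single summit, and 203, 508 and 293 had 5 or more. All 3 libraries marked 2387 genes (13.2%), both depletions without control 2745 (15.2%) and control alone 1469 (8.12%). No library marked 5293 genes (29.3%), which were short in near-splice bases, with a median of 1500 bp where genes marked in all 3 had 10055 bp.

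Of the 5910 control genes, 2311 had no near-splice summit in siStar-PAP, which is 39.1% (37.9 to 40.4) of them and 12.8% of all genes, and 2681 had none in siRBM10, which is 45.4% (44.1 to 46.6) of them and 14.8% of all genes. In the other direction, of 18084 genes 5066 had a siStar-PAP summit and no control summit, and 4560 a siRBM10 summit and no control summit. A control summit was found in 41.5% of siStar-PAP genes and 41.5% of siRBM10 genes, where 32.7% of all genes had one. Genes with a summit in control alone of a pair had fewer near-splice bases, with medians of 5232 and 5401 bp, than genes with summits in both, with 8773 and 9016 bp. Most of these genes had 1 or 2 summits and each condition 1 library, so the absence of a summit in a single gene has no replicate check.

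The genes with the most near-splice summits were long genes with many exons. In control these were RYR2 (14, a calcium release channel), ACACA (11, acetyl-CoA carboxylase), HMCN1 (11, an extracellular matrix protein), LAMA2 (11, a laminin chain) and ADGRV1 (10, an adhesion receptor). Spreading the control members over genes by their near-splice length gave 6.65, 3.8, 6.07, 3.76 and 5.29 for these. The same genes had 8, 8, 2, 3 and 5 summits in siStar-PAP and 7, 7, 2, 2 and 4 in siRBM10. These genes were picked for their control number, so lower numbers in the other lists are a description only.

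In the depletions other genes led. They were picked for their number in siStar-PAP or siRBM10, so high numbers there and lower ones in control are a description only. RYR1, the calcium release channel of skeletal muscle, had 24 summits in siStar-PAP, 24 in siRBM10 and 6 in control, where its length gave 8.16, 6.60 and 4.86. COL5A1, a collagen chain and a known Star-PAP target, had 17, 10 and 1, where its length gave 5.87, 4.75 and 3.5. Of these, 13 of 17 and 8 of 10 were on the 3′ side. In RYR1 the sides were nearly even, with 11 of 24 and 13 of 24 on the 3′ side. LRP1, an endocytic receptor, had 16, 12 and 1, with 9 of 16 and 5 of 12 on the 3′ side. DYSF, a membrane repair protein, had 17, 8 and 4, with 7 of 17 and 4 of 8 on that side, and CACNA1B, a calcium channel, 14, 7 and 1, with 7 of 14 and 3 of 7. In siRBM10 the leading genes also included DNAH17 (a dynein chain) at 20, SPTBN4 (a spectrin) at 13 and EHMT1 (a histone methyltransferase) at 12. Their siStar-PAP numbers were 13, 9 and 9, and their control numbers 2, 2 and 1. All these genes were below their expected number in control except DYSF, RYR1 and SPTBN4, at 4 where 3.39, at 6 where 4.86 and at 2 where 1.91 were expected.

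The genes whose products read splice sites held more near-splice summits than their length gave in the depletions. The list holds 22 genes of the U1 and U2 snRNPs and their helpers. In control 8 of 22 (36.4%) had at least 1 summit, where 32.7% of all genes did, in siStar-PAP 14 (63.6%, 47.9% of all genes), and in siRBM10 15 (68.2%, 43.1% of all genes). The summed numbers were 12 in control, 0.947 times that given by near-splice length (0.489 to 1.65), 42 in siStar-PAP, 1.97 times (1.42 to 2.67), and 33 in siRBM10, 1.92 times (1.32 to 2.69). The median gene of the list had 0, 1 and 1 summits, and the median of all genes was 0 in each library. Its members with the most were DDX46 (an RNA helicase of the U2 snRNP step) with 2, 7 and 4, and SF3B3 (a U2 snRNP subunit) with 1, 7 and 4 in control, siStar-PAP and siRBM10. On the 3′ side were 5 of 7 and 3 of 4 depletion summits of DDX46, and 3 of 7 and 2 of 4 of SF3B3. U2AF2, the large U2AF subunit, had 0, 3 and 1, SNRNP70, a U1 snRNP protein, 0, 2 and 2, and SF3B1, which contacts the branch point, had none in any library.

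The 29 measured splicing regulators (SRSF2 of the 30 listed had no near-splice bases) included 14 genes with a summit in control (48.3%), 14 in siStar-PAP (48.3%) and 16 in siRBM10 (55.2%), where 32.7%, 47.9% and 43.1% of all genes had one. The share was thus above that of all genes in control and siRBM10 and about equal to it in siStar-PAP. Summed numbers were 20, 30 and 25, or 1.38 (0.843 to 2.13), 1.23 (0.833 to 1.76) and 1.27 (0.823 to 1.88) times those given by length, with intervals that include 1. Among them QKI, a STAR family protein, had 3 summits in control and none in either depletion, where its length gave 0.494, 0.829 and 0.671. SRSF3, an SR protein, had 2 in control and none in the depletions, where its length gave 0.179, 0.301 and 0.243. PTBP1, which binds polypyrimidine tracts, had none in control and 2 in each depletion, where its length gave 0.260, 0.437 and 0.353. With expected numbers this low, an absence in a single gene is a description only. Other regulators followed neither pattern, such as TRA2B with 2, 0 and 2, RBM39 with 2, 4 and 3, and CELF1 with 1, 5 and 1.

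Known RBM10 splicing targets were too few for a count to stand out. Of 7 genes, 2 had a summit in each library (28.6%, beside 32.7%, 47.9% and 43.1% of all genes), with 2, 7 and 5 summits in all, at 0.567 (0.0687 to 2.05), 1.18 (0.475 to 2.44) and 1.04 (0.339 to 2.44) times the number given by length. NUMB, an inhibitor of Notch signalling whose exon choice RBM10 is known to set, had 1 summit in control and none in siStar-PAP or siRBM10, where its length gave 0.688, 1.15 and 0.933. DLG4, a synaptic scaffold, had none in control and 4 in each depletion, and all 4 siRBM10 summits lay in the last 100 bp before a 3′ splice site, while 3 of 4 siStar-PAP summits were on the 5′ side and none was in those 100 bp. RBM5, a paralog of RBM10 that is also on the list of regulators, had 1, 3 and 1. BCL2L1, EIF4H, FAS and SMN2 had none in any library. SMN2 shares nearly all of its sequence with SMN1, and unique mapping removes reads that fit both. Whether this took part in its lack of summits was not tested, and its length gave only 0.473, 0.795 and 0.643.

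The list of 38 genes that the study names in its Star-PAP experiments holds targets for the most part, and also GCLC, its non-target control, which had 0, 0 and 1 summits. At least 1 summit was found in 19 (50.0%) in control, 21 (55.3%) in siStar-PAP and 22 (57.9%) in siRBM10, where 32.7%, 47.9% and 43.1% of all genes had one. These genes had more near-splice bases, with a median of 5402 bp against 3690.5 bp for all genes. Summed numbers were 28, 57 and 44, or 0.958 (0.637 to 1.38), 1.16 (0.880 to 1.51) and 1.11 (0.806 to 1.49) times those given by length, with intervals that include 1. COL5A1 alone gave 17 of the 57 and 10 of the 44. In siStar-PAP 7 of the 19 control genes had no near-splice summit, and 7 had none in siRBM10. Of all 5910 control genes, 39.1% had none in siStar-PAP and 45.4% had none in siRBM10, so the list did not stand out. BRCA1, a DNA repair protein, had 3, 7 and 2 summits, HMOX1, the heme oxygenase, 1, 2 and 1, and NQO1, an antioxidant reductase, none. The study chose these genes with the same experiment in view, so the list is no independent set.

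**Figure D5:**
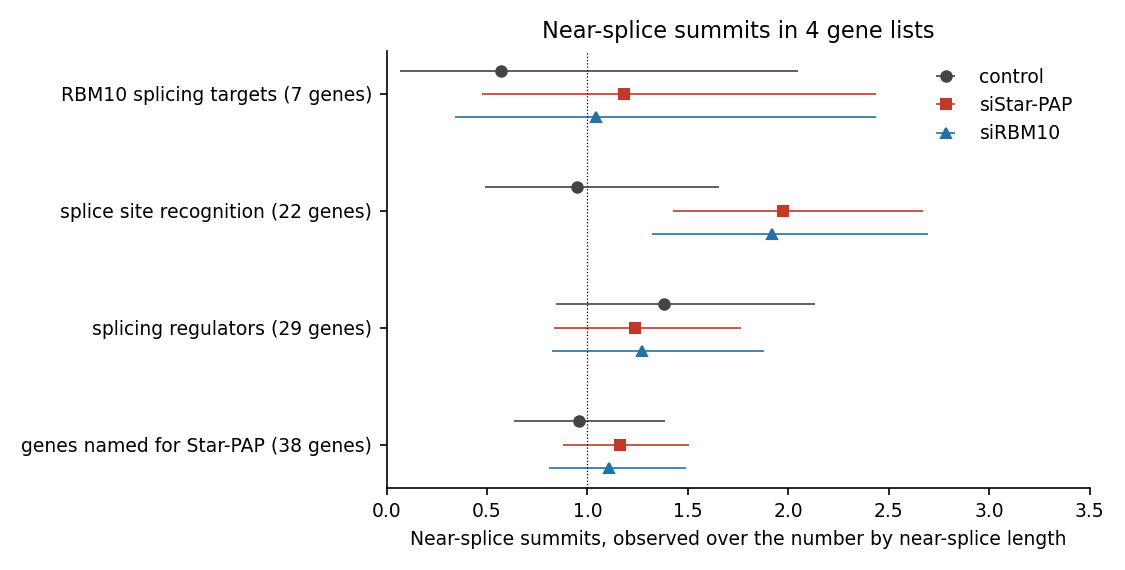
Near-splice summits of 4 gene lists over the number that the near-splice length of their genes gives, per library, with 95% exact Poisson intervals. The intervals of siStar-PAP and siRBM10 lie above 1 for the genes of splice site recognition, and all other intervals include 1.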

How the data were processed

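HITS-CLIP summits of 3 Star-PAP libraries in HEK293 cells were analysed, 1 per condition, with groups taken from the labels. The authors trimmed the reads with cutadapt 1.14, mapped them to hg19 with BWA 0.7.12, kept unique tags and called peaks with MACS2 against IgG at p of 0.05. The deposited values are the −log10 of the MACS2 p-value at summits of 1 bp. Widths, strands and tag counts were not used here, so the depth is unknown. Exons, introns and splice sites were those of GENCODE release 44 mapped to hg19. Introns under 50 bp, undetermined bases and exonic bases of any gene were left out. Expected numbers spread the summits of each intron stretch evenly over its bases, which is the mean of shuffling them there. Shares carry Wilson and ratios exact Poisson intervals at 95%. Splice sites of overlapping genes on either strand were all used, with the nearest one assigned.

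The members and gene lists were chosen with earlier results of these data known. Genes named are those with the 3 highest scores per library and side, the 5 with most summits, the first 8 sites common to all libraries, and the lists. Some items that these rules select are not reported here. The alternatives were p at most 0.01, a score of at least 4, equal numbers of summits, the longest coding transcript, introns over 1000 bp, introns of 1 strand, windows of 150 bp (50 bp for the close window), 20 shuffled sets (seed 1), only exons of coding transcripts left out, 100 bp for sharing, and at least 2 control summits. Python 3.11.15, numpy 2.4.6 and scipy 1.17.1 were used, and 3 of 3 steps tested on simulated data recovered the known answers.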

Additional observations from a re-analysis of the deposited data

How the results depend on the processing

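Under the alternatives, 67 of 128 values stayed within the 95% counting interval of the reported value and 61 moved beyond it. The 3′ side ratio stayed above 1 with its interval in both depletions under each alternative run, except for siRBM10 with a score of 4 or more, where it was 1.0 (0.924 to 1.08). Leaving out introns of both strands, leaving out only exons of coding transcripts, or using shuffled sets moved none of the values. With p at most 0.01, the near-splice ratio was 0.849 in control and 0.976 in siRBM10, and the ratio within 100 bp was 0.864 in control. The 3′ share was then 48.4%, 53.7% and 52.8% in control, siStar-PAP and siRBM10, and the first-intron share 9.47%, 11.7% and 11.5%. The control genes without a summit were 36.5% in siStar-PAP and 41.5% in siRBM10, and shared control summits 19.5% and 15.4%. With a score of 4 or more, the near-splice ratio was 0.794 in control and 0.942 in siRBM10, and the ratio within 100 bp 0.779 in control and 1.23 in siStar-PAP. The 3′ share was 42.6%, 57.0% and 52.8%, and the first-intron share 9.80%, 9.10% and 9.33%. A lower first-intron share in control was thus not seen, and the order of these first-intron shares is not read. The genes without a summit were 88.8% and 89.8%, and shared summits 3.47% and 2.84%, with fewer summits left by construction. With equal numbers of summits, siStar-PAP had a 3′ share of 53.3% and a first-intron share of 12.1%, and siRBM10 had 42.8% of genes without a summit and 14.4% of summits shared. On the longest coding transcript the first-intron shares were 5.76%, 9.80% and 9.64%, the 3′ shares 54.5% and 54.1% in the depletions, the ratio within 100 bp 1.22 in siStar-PAP, and the genes without a summit 43.0% and 49.4%. In introns over 1000 bp the first-intron shares were 8.65%, 15.0% and 14.7%, the ratio within 100 bp was 1.25 in siStar-PAP, the genes without a summit were 44.5% and 50.5%, and 15.3% of control summits were shared with siStar-PAP. With a window of 150 bp the near-splice ratios were 1.13 and 1.06 in siStar-PAP and siRBM10, those of the close window (50 bp) 1.22 and 1.22, the 3′ shares 55.4% and 53.4%, the first-intron shares 11.98% and 11.9%, the genes without a summit 51.9% and 58.7%, and 17.0% of control summits were shared with siStar-PAP. With at least 2 control summits per gene, 33.2% and 38.0% of genes had none in siStar-PAP and siRBM10. At 100 bp, 4.18% and 2.82% of control summits were shared. The cause of these shifts was not tested except where fewer summits or a narrower window give them by construction. No paired analysis was possible because each condition has 1 library. Depth is unknown, the lists hold no strand, and a summit is not the crosslinked base, which limits statements on the missing of a summit in a gene and on distances well below the fragment size.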
